A study of Mus musculus with 18 samples.

Results

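The genes described here are 35 genes of lipid synthesis that are known targets, regulators or partners of the sterol regulatory element binding proteins (SREBPs), out of 18194 genes with a value on the arrays. They were taken as a named list of pathway genes with no threshold on a measured value. Earlier results of these data were known when the list was made. The brightest probe set of a gene, averaged over the 18 arrays, stood for it. The list was kept as 2 arms: 18 genes of sterol synthesis and its control, and 17 genes of fatty acid and glycerolipid synthesis. All 35 had a value, and 34 had a mean above the 40th percentile of all genes, 5.87 on the log2 scale, Pnpla3 being the exception. The arrays held RNA of primary hepatocytes, the parenchymal cells of the liver, freshly isolated from male C57BL/6N mice aged 8 to 12 weeks and kept at sub-confluence on collagen I.

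Every group shared the same history. The cells were plated with 10% serum, 100 nM dexamethasone and 10 µg/ml insulin, attached for 4 h, were held for 24 h in serum-free medium that still contained dexamethasone and for which no insulin is listed, and were moved for the last 4 h before stimulation to a starvation medium without dexamethasone. Controls had no cytokine and were sampled at 0, 4, 8, 12 and 24 h (5 arrays) and once at -5 h (1 array), which by the hours of the protocol precedes the starvation medium. IL-6 at 40 ng/ml, the cytokine of the hepatic acute-phase response, was given from 0 h and sampled alone at 1, 2, 3 and 4 h (4 arrays). HGF at 40 ng/ml, the growth factor that activates the receptor Met, was added to it at 4 h, and IL-6 plus HGF was sampled at 5, 6, 7, 8, 9, 10, 12 and 24 h (8 arrays). Cells of an experiment came from 1 animal or a pool of up to 3, and the labels do not say which arrays share animals. Each condition and hour was measured on 1 array, so hours took the place of replicates, and a p-value sets a difference against the scatter among these arrays alone, which may be technical. IL-6 without HGF after 4 h and HGF without IL-6 were not analysed here, so the addition of HGF and a longer exposure to IL-6 cannot be told apart.

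SREBPs are transcription factors held in the membrane of the endoplasmic reticulum. When membrane sterol is low they are carried to the Golgi, cut, and sent to the nucleus, where they bind promoters of lipid genes, and when sterol is high the Insig proteins retain them. The form encoded by Srebf2 acts mainly on cholesterol synthesis and uptake, while the form made in liver from Srebf1 acts mainly on fatty acid synthesis, is induced by insulin, and works beside the glucose-responsive factor encoded by Mlxipl.

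The deposited values were log2 signals whose array medians ran from 5.47 to 5.57. Each array correlated with the rest at 0.985 to 0.994 on average, and the lowest 3 were IL-6 plus HGF at 24 h, control at 24 h and IL-6 plus HGF at 10 h. Among the hepatocyte markers Alb was high on every array, from 14.67 to 14.89, but others were not. Asgr1 read 10.10 in control at 0 h and 6.25 at 24 h of IL-6 plus HGF. On the same arrays Cyp2e1 read 12.77 and 8.31, and Tat read 9.19 and 5.76. The mean of 8 hepatocyte markers relative to control at 0 h ran from -0.32 to -1.77 in the later controls, from 0.00 to -0.33 under IL-6, and from -0.56 to -2.44 under IL-6 plus HGF. The mean of 4 nuclear RNAs (Malat1, Neat1, Meg3 and Kcnq1ot1) ran from -1.35 to -0.94 in the controls from 4 h on, from -0.38 to -0.07 under IL-6, and from -1.61 at 6 h to 0.34 at 10 h under IL-6 plus HGF. The mean of 15 Kupffer cell markers, relative to control at 0 h, ran from -0.56 to -0.19 in the later controls, from -0.64 to -0.49 under IL-6, and from -0.65 to -0.35 under IL-6 plus HGF. Means of 11 endothelial markers ran from -0.63 to -0.05 and of 11 stellate cell markers from -0.11 to 0.28 over the arrays after 0 h. In whole-culture RNA, fewer cells of a type and less RNA per cell cannot be told apart.

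In unstimulated cells the sterol arm lay lower at each later hour. Its mean over 18 genes, relative to control at 0 h, stood at -0.26 at 4 h, -0.42 at 8 h, -0.63 at 12 h and -0.79 at 24 h. The fatty acid arm had its step mainly by 4 h: its mean over 17 genes stood at -0.22 at 4 h, -0.20 at 8 h, -0.29 at 12 h and -0.28 at 24 h. Under IL-6 the sterol mean stayed between -0.16 and -0.01. One hour after HGF the sterol mean stood at 0.10, above control at 0 h, and it then lay at -0.17 at 6 h, -0.20 at 7 h, -0.14 at 8 h, -0.30 at 9 h, -0.51 at 10 h, -0.38 at 12 h and -0.80 at 24 h. The fatty acid mean under IL-6 plus HGF lay at -0.15 at 5 h, -0.18 at 6 h, -0.28 at 7 h, -0.28 at 8 h, -0.36 at 9 h, -0.26 at 10 h, -0.51 at 12 h and -0.52 at 24 h. The sterol mean of the stimulated cells was therefore above control at 8 and 12 h and level with it at 24 h, whereas the fatty acid mean was below control at 8, 12 and 24 h.

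**Figure D1:**
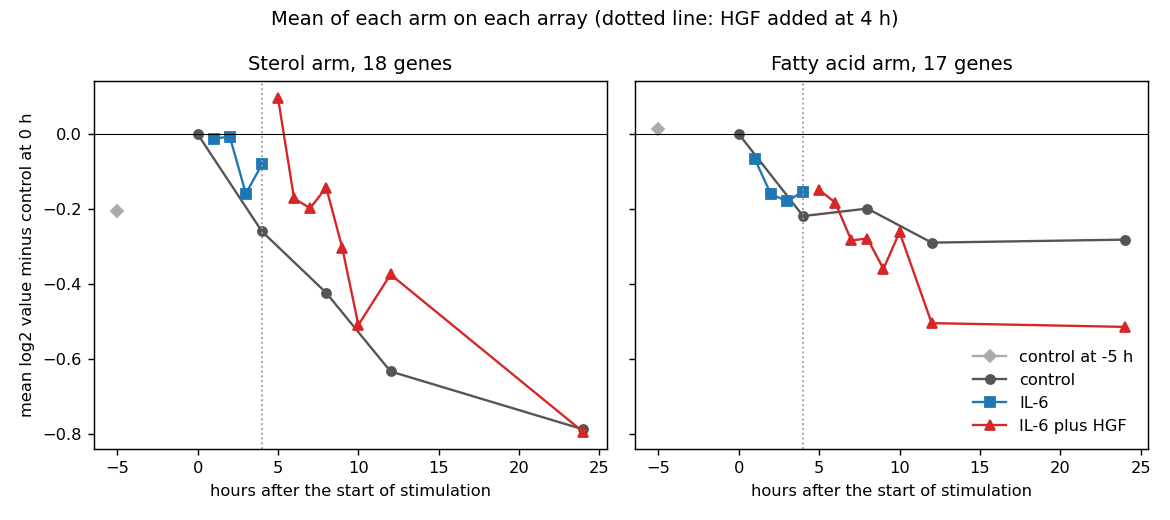
Mean log2 value of each arm on each array minus control at 0 h (y axis, log2 units) against hours after the start of stimulation (x axis), for control at -5 h, later controls, IL-6 and IL-6 plus HGF; each point is 1 array and the dotted line marks the addition of HGF. The sterol mean stood at 0.10 on the 5 h array and at -0.80 on the 24 h array of IL-6 plus HGF, against -0.79 in control at 24 h.

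**Figure D2:**
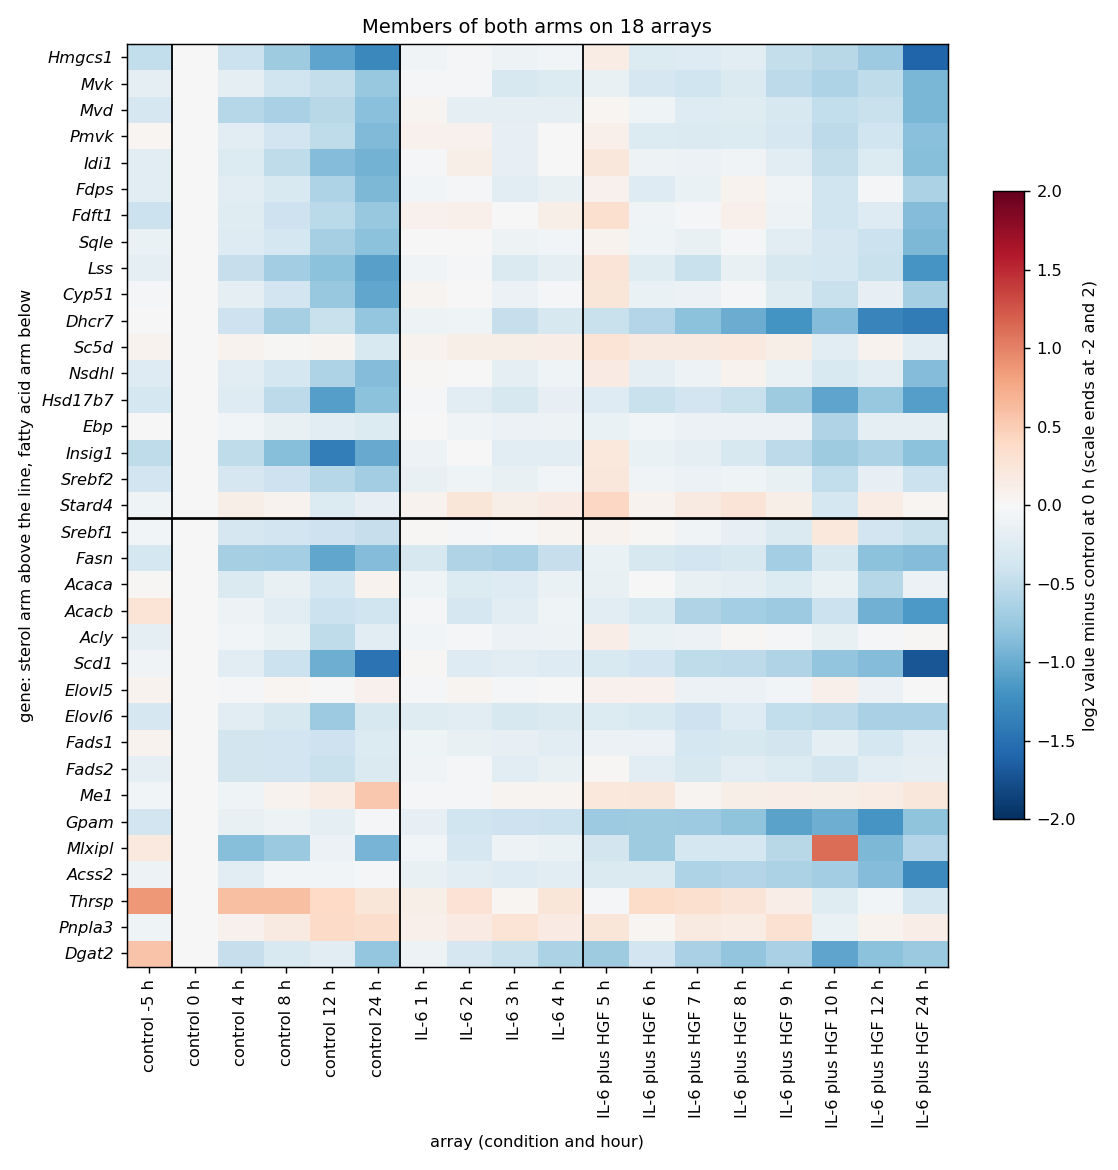
Log2 value minus control at 0 h (colour, red above and blue below, scale ending at -2 and 2) for the 35 genes (rows, sterol arm above the line, fatty acid arm below) on the 18 arrays (columns, by condition and hour). Sterol rows pale again under IL-6 and at 5 h of IL-6 plus HGF, while Gpam, Acss2, Acacb and Dhcr7 stay blue to the right.

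Promoter windows from RefSeq (build GRCm38.p6, 250 bases before to 50 after the start) were matched to 28 of the 35 genes, 14 of each arm. The 250 bases upstream are printed for 3 genes. Hmgcs1 and Mvd are sterol genes that fell over time, and Acss2 is a fatty acid gene whose slope differed between stimulated cells and control. They were taken from members called at matched hours or in a trend, with a single start. Genes holding a sterol regulatory element came first, then those with the smallest p. The element in Hmgcs1 was thus part of the choice. Capitals mark the sterol regulatory element (searched as TCACNCCAC) and the CCAAT box, which reads ATTGG where it lies on the other strand.

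Hmgcs1, chr13:119690101-119690350, plus strand: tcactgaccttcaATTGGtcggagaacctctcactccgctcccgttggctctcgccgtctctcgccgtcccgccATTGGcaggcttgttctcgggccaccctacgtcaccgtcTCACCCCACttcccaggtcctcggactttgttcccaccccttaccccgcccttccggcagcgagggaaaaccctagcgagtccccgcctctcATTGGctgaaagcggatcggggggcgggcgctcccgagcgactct
Mvd, chr8:122443423-122443672, minus strand: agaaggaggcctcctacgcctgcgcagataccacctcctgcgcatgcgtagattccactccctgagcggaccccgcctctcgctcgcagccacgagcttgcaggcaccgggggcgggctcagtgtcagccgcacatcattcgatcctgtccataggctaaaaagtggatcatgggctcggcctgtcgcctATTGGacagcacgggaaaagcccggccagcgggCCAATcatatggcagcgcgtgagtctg
Acss2, chr2:155517793-155518042, plus strand: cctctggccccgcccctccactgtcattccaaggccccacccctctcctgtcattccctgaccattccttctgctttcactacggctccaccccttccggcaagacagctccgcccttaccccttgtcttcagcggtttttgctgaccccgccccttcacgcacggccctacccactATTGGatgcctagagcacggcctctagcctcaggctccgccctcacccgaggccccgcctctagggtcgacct

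The Hmgcs1 window held 1 sterol regulatory element, TCACCCCAC, whose first base was at -137 from the start, and 3 CCAAT boxes on the other strand with first bases at -237, -176 and -45. The Mvd window had a CCAAT box on each strand, at -60 and -27, and the Acss2 window had 1, at -73. On both strands of the 300 bases, TCACNCCAC was found for 2 of the 28 genes (Hmgcs1 and Mlxipl, 7.14%) against 1.44% of all 27025 genes with a window. CCAAT was found for 14 of 14 sterol genes and 11 of 14 fatty acid genes against 41.1% of all genes. The GC box GGGCGG was found for 13 sterol genes and 8 fatty acid genes against 38.2% of all genes, and the E-box CACGTG for 4 and 2 against 8.09%. These are matches of letters in a window, and nothing here measured binding.

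In the control time course a part of the sterol arm fell. Of the 18 sterol genes 6 fell (Lss, Hmgcs1, Idi1, Srebf2, Fdft1 and Sqle) and 0 rose, as slopes on log2 of (hours + 1) over 5 arrays tested with limma and Benjamini-Hochberg adjustment over all genes at 0.05. Over all genes 1.46% fell and 2.14% rose in that test. All 18 slopes were negative, also after median centring, with a median of -0.18 log2 per doubling against -0.002 over all genes. In 12 of 18 there was a lower value at each later control, a pattern seen in 3.9% of all genes. Of the 17 fatty acid genes 1 fell (Fasn) and 0 rose, with a median slope of -0.07 (0.02 without control at 0 h). Leaving out control at 4 h or at 8 h left 0 of these 7 genes called. Of all genes 9 or 12 then fell in place of 266, and the sterol median slope was -0.17 or -0.18 with 18 of 18 negative. Without 12 h Lss alone was called, and without 0 h Scd1 alone was. Without 24 h Lss, Hmgcs1, Insig1 and Fasn were called. With the mean of the nuclear RNAs as covariate 0 members and 0 of all genes were called, and the sterol median slope was -0.25 with 18 of 18 negative. Quantile normalization gave 15 members, with 18 of 18 sterol slopes negative. Hepatocyte markers lay lower over the same hours, 1 of 8 falling (Tat, -0.46 ± 0.05); their part in the sterol slopes was not tested.

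Under IL-6 alone, in the first 4 hours, 0 of 18 sterol genes and 0 of 17 fatty acid genes passed the test against control at 0 and 4 h, where 0.022% of all genes did (limma on 17 arrays). At an unadjusted p under 0.05, 0 sterol genes and 1 fatty acid gene (Gpam, lower) were past the threshold, against 3.61% of all genes. The median difference was 0.08 in the sterol arm and -0.05 in the fatty acid arm, against -0.009 over all genes. Both turned with the choice of control: without control at 4 h the sterol median was -0.07 (14 of 18 negative), and without control at 0 h it was 0.20 and the fatty acid median 0.08. The 2 controls of this window differed from each other, the sterol mean being lower at 4 h by the value given above. Against control at 4 h only, 12 of 18 sterol genes had all 4 IL-6 arrays above it, a pattern seen in 23.2% of all genes. The same held for 8 of 17 fatty acid genes. For 3 other fatty acid genes (Elovl6, Gpam and Thrsp) all 4 were below it, seen in 28.1% of all genes. Against control at 0 h, all 4 IL-6 arrays were below it for 7 sterol and 11 fatty acid genes (25.4% of all genes). At the 1 hour measured in both conditions, 4 h, 16 of 18 sterol genes were higher with IL-6 and the median difference was 0.18 (all genes -0.02), on 1 array each and so with no replicate check. In the same window 14 of 15 Kupffer cell markers were lower with IL-6 (median -0.50, 0 passing), and their part was not tested.

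At the hours measured in both conditions, 8, 12 and 24 h, the arms parted. In the sterol arm 4 genes were higher with IL-6 plus HGF (Cyp51, Fdps, Srebf2 and Insig1) and 1 was lower (Dhcr7), where 2.53% of all genes were higher and 6.45% lower in this test (limma on 6 arrays with the hour as a block). In the fatty acid arm 0 were higher and 4 were lower (Gpam, Acacb, Acss2 and Thrsp). Differences were positive at both 8 and 12 h for 16 of 18 sterol genes and 7 of 17 fatty acid genes, against 33.2% of all genes. Averaged over the 3 hours they were positive for 16 of 18 sterol genes (17 after quantile normalization, 16 after median centring), with a median of 0.20, and for 5 of 17 fatty acid genes (6 after quantile normalization), with a median of -0.09, against 0.01 over all genes. Above control at 8 and 12 h and below it at 24 h were 6 sterol genes (Hmgcs1, Mvd, Fdft1, Sqle, Lss and Hsd17b7) and 3 fatty acid genes (Fasn, Elovl6 and Me1), against 9.55% of all genes. The sterol median by hour came to 0.34, 0.34 and 0.03 for 8, 12 and 24 h, and the fatty acid median to -0.02, -0.12 and -0.18.

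The 4 higher sterol calls changed with the pairs used, although each of the 4 genes was above control at 8, 12 and 24 h. Of all genes 460 were called higher with all pairs. That number was 228 without the 8 h pair, 178 without the 12 h pair and 207 without the 24 h pair. Without the 8 h pair or without the 12 h pair 0 sterol genes were called higher, without the 24 h pair Insig1 and Idi1 were, and median centring kept 2 of the 4 (Cyp51 and Fdps), for 2 higher and 5 lower over both arms. Over 17 arrays as 4 group means, the 8 IL-6 plus HGF arrays from 5 h on were set against control at 8, 12 and 24 h, so hours were not matched. There Idi1, Cyp51, Insig1 and Srebf2 were higher and Gpam and Acss2 lower, with a sterol median of 0.37. The part of the unlike hours in that median was not tested. With the nuclear RNA mean as covariate in that fit, the sterol median was 0.29 with 17 of 18 positive, and Gpam and Acss2 were the members called. Gpam was called in 13 of 13 other settings, Acss2 in 12, Acacb and Cyp51 in 8, Dhcr7 and Insig1 in 7, Srebf2 in 6, and Thrsp and Fdps in 5, with 0 changes of sign among these 9 genes. Malat1 was also higher with IL-6 plus HGF at these hours (1.56 ± 0.20, adjusted p = 0.00903, limma), and 4 of 8 hepatocyte markers were lower (Tat, Hnf4a, Cps1 and Asgr1; median of the 8 -0.50). The part of the hepatocyte markers in the lower calls was not tested.

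**Figure D3:**
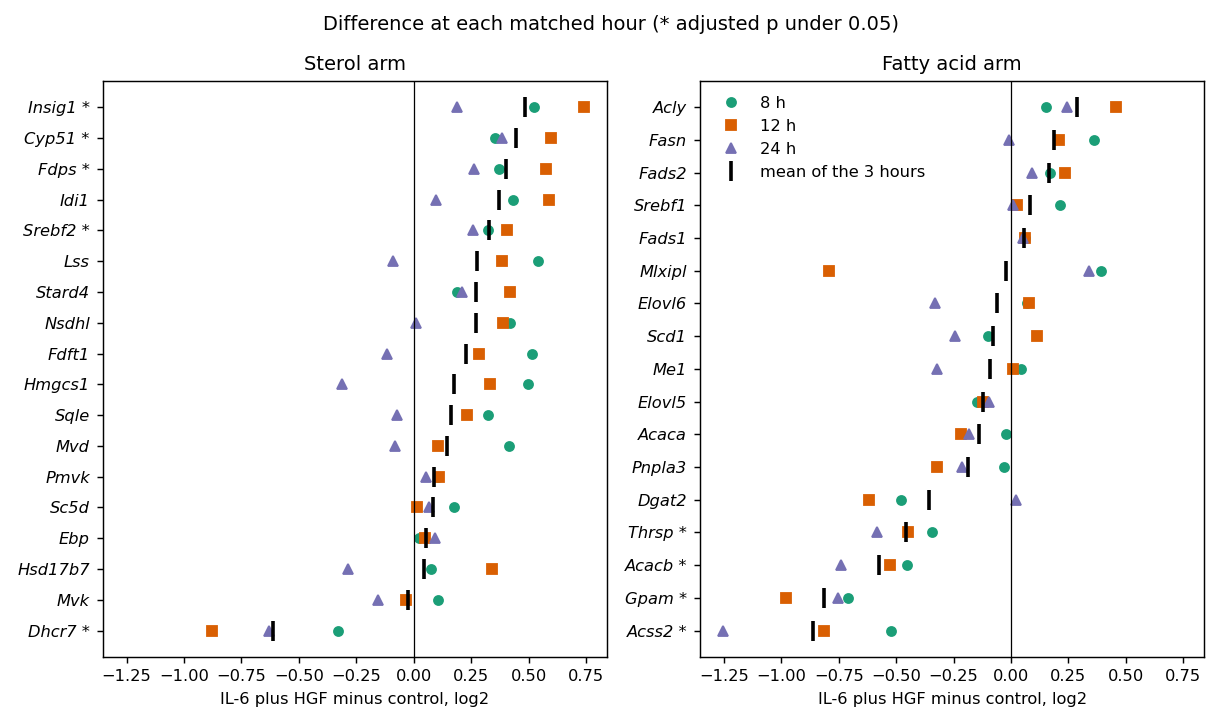
IL-6 plus HGF minus control in log2 units (x axis) at 8, 12 and 24 h (symbols) and their mean (black line) for each gene (y axis), sterol arm left and fatty acid arm right; an asterisk marks an adjusted p under 0.05 with limma. Sterol points at 8 and 12 h lie mostly right of 0 with Dhcr7 at the far left, and Gpam and Acss2 lie left of -0.5 at each of the 3 hours.

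Between 5 and 24 h of IL-6 plus HGF most sterol genes fell. Of 18 sterol genes 13 fell (Hmgcs1, Mvk, Mvd, Pmvk, Idi1, Fdft1, Sqle, Lss, Cyp51, Dhcr7, Nsdhl, Hsd17b7 and Insig1) and 0 rose, and of 17 fatty acid genes 4 fell (Scd1, Acss2, Acacb and Fasn) and 0 rose, where 4.84% of all genes fell and 6.25% rose (limma slopes on log2 of the hours, 8 arrays). The sterol slopes were negative for 18 of 18, with a median of -0.39 log2 per doubling of hours, against -0.09 in the fatty acid arm and -0.01 over all genes. The highest of the 8 arrays was the 5 h array for 17 of 18 sterol genes, a pattern seen in 10.4% of all genes, and the lowest was the 24 h array for 15, seen in 25.8%. Without the 24 h array 3 sterol genes (Hmgcs1, Dhcr7 and Insig1) and 2 fatty acid genes (Scd1 and Acss2) were called, and without the 10 h array 21 members were. Of all genes 194 fell without the 24 h array and 1326 without the 10 h array, in place of 880. Without the 24 h array the sterol median slope was -0.37, with 18 of 18 negative. Hepatocyte markers fell over the same hours, 6 of 8 passing with a median slope of -0.75; their part was not tested.

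Slopes of the arms in control and under IL-6 plus HGF were set against each other gene by gene in 1 fit with an interaction. It used 12 arrays from 4 h on, with log2 of the hours in both conditions. Only Acss2 passed, where 0.0605% of all genes had a lower slope with IL-6 plus HGF than in control and 0.0385% a higher one. Slope differences were negative for 14 of 18 sterol and 15 of 17 fatty acid genes, against 9151 of 18194 over all genes. Their medians were -0.13 and -0.12, against -0.001 over all genes. At an unadjusted p under 0.05 (limma), 6 sterol and 3 fatty acid genes were lower and 0 higher, against 625 lower and 519 higher of all genes. Hmgcs1 (-0.38 ± 0.09, adjusted p = 0.186, limma) and Mvd (-0.32 ± 0.07, adjusted p = 0.172, limma) had steeper slopes with IL-6 plus HGF that did not pass. Of the 17 members that fell under IL-6 plus HGF, 6 (35.3%) also fell in control, which is 85.7% of the 7 that fell there. Over all genes the 151 that fell in both were 17.2% of the 880 that fell under IL-6 plus HGF and 56.8% of the 266 that fell in control. For the difference between the 2 windows (IL-6 plus HGF minus control after 4 h, less IL-6 minus control before) 0 members passed, where 0.022% of all genes did. The later window set all 8 IL-6 plus HGF arrays, from 5 h on, against control at 8, 12 and 24 h, so its hours were not matched. There were 0 sterol and 4 fatty acid genes past an unadjusted p of 0.05 against 7.8% of all genes (limma). In the sterol arm 17 of 18 of these differences were positive, with a median of 0.24, against 9441 of 18194 and 0.009 over all genes. Of the IL-6 plus HGF arrays the 5 h array, which had no control of its hour, was the highest for 17 of 18 sterol genes. The part of the unlike hours in these differences was not tested. The sterol median was 0.43 without control at 4 h, 0.38 without control at 8 h and 0.15 without control at 0 h.

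**Figure D4:**
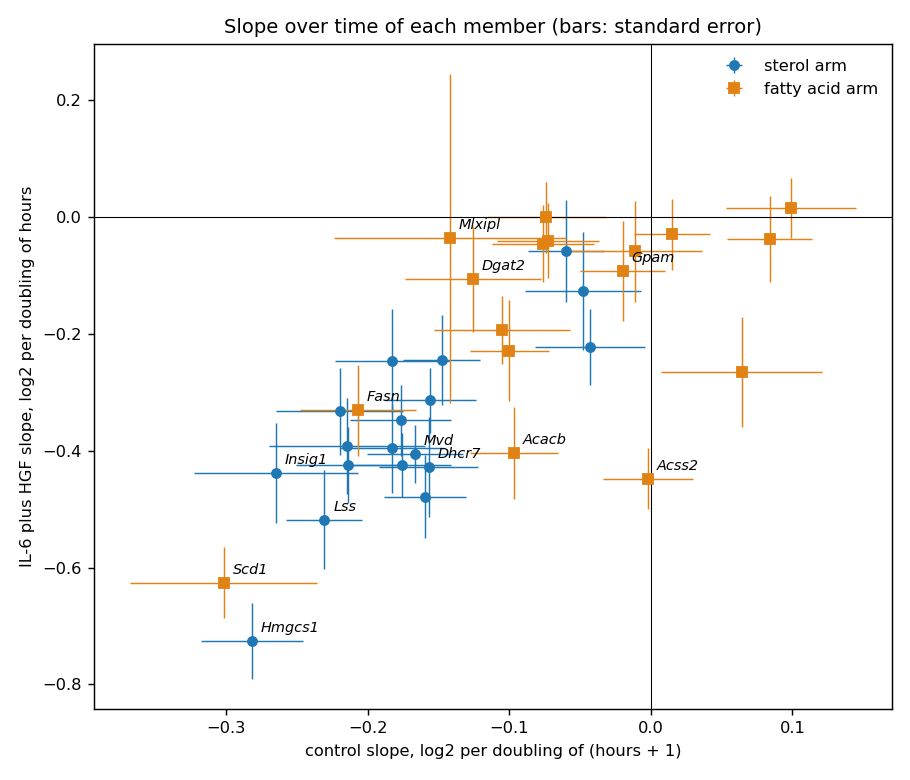
Slope under IL-6 plus HGF (y axis, log2 per doubling of hours, 8 arrays) against slope in control (x axis, log2 per doubling of hours plus 1, 5 arrays) for the 18 sterol and 17 fatty acid genes; bars are standard errors. The sterol genes all lie below 0 on both axes, Hmgcs1 lowest on the y axis at -0.72, and Acss2 stands at -0.002 in control and -0.45 under IL-6 plus HGF.

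Of the genes of the mevalonate steps, Hmgcs1, which encodes the cytosolic synthase that makes hydroxymethylglutaryl-CoA, had control values of 12.51 at 0 h, 12.08 at 4 h, 11.79 at 8 h, 11.45 at 12 h and 11.21 at 24 h. The IL-6 arrays read 12.44, 12.47, 12.40 and 12.45 at 1, 2, 3 and 4 h, all above control at 4 h. The IL-6 plus HGF arrays ran from 10.90 at 24 h to 12.65 at 5 h, with a median of 12.13. So the 4 IL-6 arrays were nearly level, and the stimulated arrays stayed above control at 8 h and 12 h and below it at 24 h, with pair differences of 0.50 at 8 h, 0.33 at 12 h and -0.31 at 24 h. Its fall was -0.72 ± 0.07 per doubling of hours under IL-6 plus HGF (adjusted p = 0.000209, limma). In control it was -0.28 ± 0.04 per doubling of hours plus 1 (adjusted p = 0.0217, limma). Here and below, the slopes in control and under IL-6 plus HGF are on unlike time scales and hours. Their sizes are compared only in the fit with an interaction. In linear terms the 24 h array of IL-6 plus HGF was 3.35 times lower than the 5 h array.

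Mvk and Pmvk encode the kinases that phosphorylate mevalonate and its phosphate. Mvk read 8.50 at 0 h, 8.31 at 4 h, 8.11 at 8 h, 8.03 at 12 h and 7.75 at 24 h in control. IL-6 alone gave 8.48, 8.49, 8.18 and 8.24 at 1, 2, 3 and 4 h, and its IL-6 plus HGF arrays ran from 7.59 at 24 h to 8.36 at 5 h, with a median of 8.05. The stimulated and control values of Mvk were interleaved, its pair differences being 0.10 at 8 h, -0.03 at 12 h and -0.15 at 24 h. Pmvk read 8.88 at 0 h, 8.67 at 4 h, 8.50 at 8 h, 8.37 at 12 h and 8.00 at 24 h in control. With IL-6 alone the values were 8.97, 8.97, 8.72 and 8.89 at 1, 2, 3 and 4 h, and its IL-6 plus HGF arrays ran from 8.05 at 24 h to 8.98 at 5 h, with a median of 8.57. Both kinases fell under IL-6 plus HGF, Mvk by slope -0.31 ± 0.06 (adjusted p = 0.00566) and Pmvk by slope -0.35 ± 0.06 (adjusted p = 0.00525, both limma). Neither passed at matched hours, where the 95% interval of the difference was -0.22 to 0.17 for Mvk and -0.08 to 0.26 for Pmvk.

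Mvd, the decarboxylase that yields isopentenyl diphosphate, had control values of 7.69 at 0 h, 7.11 at 4 h, 7.03 at 8 h, 7.14 at 12 h and 6.86 at 24 h. The IL-6 values were 7.75, 7.50, 7.50 and 7.51 at 1, 2, 3 and 4 h, each above control at 4 h, and the IL-6 plus HGF values ran from 6.78 at 24 h to 7.72 at 5 h, with a median of 7.39. Most of the control's step had been made by 4 h, and all stimulated arrays up to 12 h lay above the controls of 4 h and later. Its slope under IL-6 plus HGF was -0.41 ± 0.05 (adjusted p = 0.000856, limma).

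Idi1 encodes the isomerase that turns isopentenyl diphosphate into its reactive isomer. Control values were 11.40 at 0 h, 11.12 at 4 h, 10.90 at 8 h, 10.54 at 12 h and 10.47 at 24 h, and the IL-6 values were 11.37, 11.52, 11.25 and 11.40 at 1, 2, 3 and 4 h. The IL-6 plus HGF arrays ran from 10.56 at 24 h to 11.62 at 5 h, with a median of 11.23. The stimulated arrays were above control at each matched hour by 0.43 at 8 h, 0.59 at 12 h and 0.10 at 24 h, which did not pass (0.37 ± 0.11, adjusted p = 0.0850, limma). It fell over time in both conditions. The slopes were -0.42 ± 0.07 per doubling of hours with IL-6 plus HGF (adjusted p = 0.00270) and -0.21 ± 0.04 per doubling of hours plus 1 in control (adjusted p = 0.0358, both limma). Their difference did not pass in the fit with an interaction.

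Fdps, which encodes farnesyl diphosphate synthase, was higher with IL-6 plus HGF by 0.37 at 8 h, 0.58 at 12 h and 0.26 at 24 h, 1.32 times on average (0.40 ± 0.09, adjusted p = 0.0388, limma). A probe set of Fdps with lower signal had the opposite sign, and the mean of all probe sets did not pass. Its slope under IL-6 plus HGF, -0.25 ± 0.09, did not pass either.

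The genes of the squalene steps moved much alike. Fdft1, squalene synthase, read 10.83 at 0 h, 10.59 at 4 h, 10.41 at 8 h, 10.29 at 12 h and 10.07 at 24 h in control. The 4 IL-6 arrays stood at 10.92, 10.93, 10.82 and 10.94 at 1, 2, 3 and 4 h, and its IL-6 plus HGF arrays ran from 9.96 at 24 h to 11.15 at 5 h, with a median of 10.75. All 4 IL-6 arrays were above control at 4 h, and the pairs differed by 0.52 at 8 h, 0.28 at 12 h and -0.12 at 24 h. Sqle, the epoxidase that commits squalene to sterols, read 11.01 at 0 h, 10.74 at 4 h, 10.66 at 8 h, 10.34 at 12 h and 10.18 at 24 h in control, a lower value at each step. IL-6 alone gave 10.99, 11.01, 10.90 and 10.95 at 1, 2, 3 and 4 h, and its IL-6 plus HGF arrays ran from 10.11 at 24 h to 11.08 at 5 h, with a median of 10.81. For Sqle too the stimulated array was above control at 8 and 12 h and below it at 24 h.

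Lss, the cyclase that makes lanosterol, had the control values 9.66 at 0 h, 9.20 at 4 h, 8.97 at 8 h, 8.84 at 12 h and 8.58 at 24 h. The values under IL-6 were 9.58, 9.63, 9.38 and 9.49 at 1, 2, 3 and 4 h, and those under IL-6 plus HGF ran from 8.49 at 24 h to 9.91 at 5 h, with a median of 9.32. Its 5 h array was the highest of all 18. The slopes under IL-6 plus HGF were -0.48 ± 0.07 for Fdft1, -0.42 ± 0.06 for Sqle and -0.52 ± 0.09 for Lss (adjusted p = 0.00232, 0.00108 and 0.00370, limma). In control they were -0.16 ± 0.03, -0.18 ± 0.04 and -0.23 ± 0.03 in the same order (adjusted p = 0.0406, 0.0477 and 0.0178, limma). None of these 3 passed at matched hours, and the 95% intervals there were -0.07 to 0.52 for Fdft1, -0.07 to 0.39 for Sqle and -0.02 to 0.58 for Lss. Of the other 3 probe sets of Fdft1, 1 had a slope of -0.40 under IL-6 plus HGF and the 2 dimmer ones had slopes of 0.04 and 0.009.

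Of the late steps, from lanosterol to cholesterol, Cyp51 was called higher and Dhcr7 lower at matched hours, and the other members of these steps did not pass. The 1 lower call among 18 sterol genes compares with 6.45% of all genes. Cyp51, which demethylates lanosterol, was higher with IL-6 plus HGF at each matched hour, by 0.35 at 8 h, 0.60 at 12 h and 0.39 at 24 h, 1.36 times on average (0.45 ± 0.08, adjusted p = 0.0244, limma). Dhcr7, the reductase of the last step to cholesterol, differed by -0.33 at 8 h, -0.88 at 12 h and -0.63 at 24 h, 1.53 times lower on average (-0.61 ± 0.11, adjusted p = 0.0238, limma). Dhcr7 read 9.63 at 0 h, 9.21 at 4 h, 8.98 at 8 h, 9.19 at 12 h and 8.86 at 24 h in control, 9.53, 9.54, 9.18 and 9.31 at 1, 2, 3 and 4 h under IL-6, and ran from 8.23 at 24 h to 9.18 at 5 h, with a median of 8.71 under IL-6 plus HGF. It was the 1 sterol gene below control at all 3 matched hours, a pattern seen in 24.6% of all genes, and its call was lost without the 12 h pair (adjusted p = 0.0819) or without the 24 h pair (adjusted p = 0.0760, limma).

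Nsdhl and Hsd17b7, which act in the removal of methyl groups from the sterol ring, fell under IL-6 plus HGF by slopes of -0.40 ± 0.08 and -0.39 ± 0.08 (adjusted p = 0.00804 and 0.0124, limma), and neither passed at matched hours. Sc5d and Ebp, a desaturase and an isomerase of the late steps, had the narrowest ranges of the arm over the 18 arrays. Their slopes under IL-6 plus HGF, -0.22 ± 0.07 and -0.06 ± 0.09, did not pass. On the 10 h array of IL-6 plus HGF, Ebp read 10.32 against 10.80 at 9 h and 10.75 at 12 h.

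Among the regulators of the sterol arm, Srebf2, the gene of the sterol-directed SREBP, read 9.21 at 0 h, 8.88 at 4 h, 8.79 at 8 h, 8.64 at 12 h and 8.52 at 24 h in control. With IL-6 alone the values were 9.06, 9.12, 9.06 and 9.16 at 1, 2, 3 and 4 h, all above the controls of 4 h and later, and its IL-6 plus HGF arrays ran from 8.71 at 10 h to 9.43 at 5 h, with a median of 9.08. At matched hours it was higher with IL-6 plus HGF by 0.32 at 8 h, 0.40 at 12 h and 0.26 at 24 h, 1.25 times on average (0.33 ± 0.07, adjusted p = 0.0451, limma). In control it fell (-0.15 ± 0.03, adjusted p = 0.0405, limma).

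Insig1 encodes the retention protein of the endoplasmic reticulum and is itself induced by SREBPs. It read 8.74 at 0 h, 8.23 at 4 h, 7.89 at 8 h, 7.36 at 12 h and 7.73 at 24 h in control, 8.63, 8.74, 8.53 and 8.53 at 1, 2, 3 and 4 h under IL-6, and ran from 7.92 at 24 h to 8.96 at 5 h, with a median of 8.31 under IL-6 plus HGF. All 8 IL-6 plus HGF arrays were above the controls of 8, 12 and 24 h. At matched hours the differences were 0.53 at 8 h, 0.74 at 12 h and 0.19 at 24 h, 1.40 times on average (0.48 ± 0.11, adjusted p = 0.0476, limma). It also fell within the IL-6 plus HGF series (-0.44 ± 0.09, adjusted p = 0.00841, limma). Stard4, a carrier of free sterol between membranes, was higher by 0.19 at 8 h, 0.42 at 12 h and 0.21 at 24 h, which did not pass (0.27 ± 0.08, adjusted p = 0.0959, limma).

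**Figure D5:**
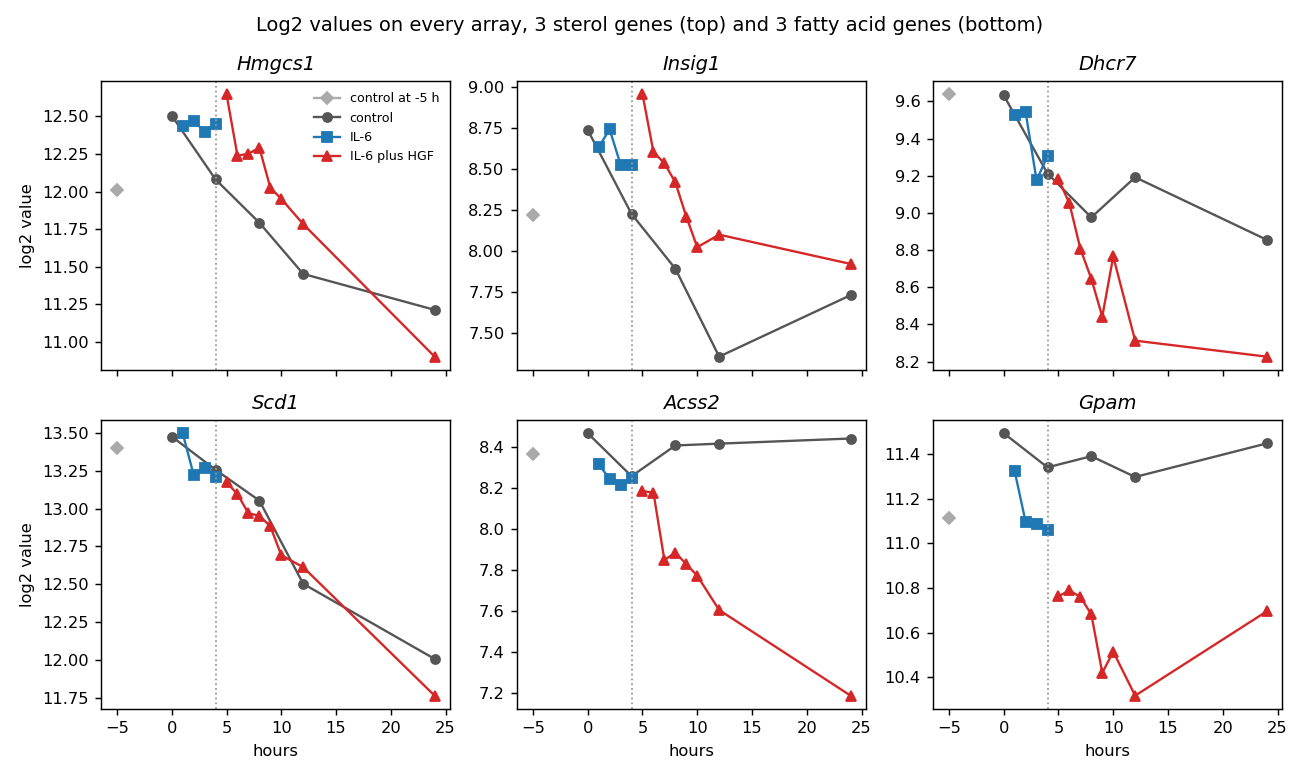
Log2 values on each array (y axis, a separate range in each panel) against hours (x axis) for Hmgcs1, Insig1 and Dhcr7 of the sterol arm and Scd1, Acss2 and Gpam of the fatty acid arm, by condition; each point is 1 array and the dotted line marks the addition of HGF. Acss2 stayed between 8.26 and 8.47 in control while its IL-6 plus HGF arrays ended at 7.19.

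In the fatty acid arm the genes that supply precursors went different ways. Acss2, which makes acetyl-CoA from acetate, read 8.47 at 0 h, 8.26 at 4 h, 8.41 at 8 h, 8.42 at 12 h and 8.44 at 24 h in control. The 4 IL-6 arrays stood at 8.31, 8.24, 8.21 and 8.25 at 1, 2, 3 and 4 h, near control at 4 h. Its IL-6 plus HGF arrays read 8.18 at 5 h, 8.18 at 6 h, 7.85 at 7 h, 7.88 at 8 h, 7.83 at 9 h, 7.77 at 10 h, 7.60 at 12 h and 7.19 at 24 h. All 8 of these lay below all 5 controls, a pattern seen in 1.97% of all genes. The pairs differed by -0.52 at 8 h, -0.81 at 12 h and -1.25 at 24 h, 1.82 times lower on average (-0.86 ± 0.14, adjusted p = 0.0158, limma). It fell under IL-6 plus HGF by a slope of -0.45 ± 0.05 (adjusted p = 0.000617) and had a slope of -0.002 ± 0.03 in control (adjusted p = 0.978, both limma).

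The difference between the Acss2 slopes was -0.52 ± 0.07 (adjusted p = 0.0182, limma) and passed. It was between -0.47 and -0.57 without any 1 of control at 4 h, control at 24 h, IL-6 plus HGF at 6 h or 24 h, or both 24 h arrays, and did not pass without them (adjusted p from 0.0511 to 0.332, limma). Over the mean of its probe sets it was -0.35 (adjusted p = 0.0935, limma). Acly, the citrate lyase that supplies most cytosolic acetyl-CoA, was above control by 0.15 at 8 h, 0.46 at 12 h and 0.24 at 24 h, which did not pass (0.28 ± 0.09, adjusted p = 0.0988, limma). Me1, malic enzyme, which supplies reducing power, read 11.77 at 0 h, 11.68 at 4 h, 11.84 at 8 h, 11.92 at 12 h and 12.32 at 24 h in control and 11.99 at 24 h of IL-6 plus HGF.

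Of the enzymes that build the chain, Fasn, fatty acid synthase, had control values of 10.01 at 0 h, 9.36 at 4 h, 9.34 at 8 h, 8.98 at 12 h and 9.15 at 24 h. The IL-6 arrays read 9.70, 9.42, 9.37 and 9.55 at 1, 2, 3 and 4 h, and the IL-6 plus HGF arrays ran from 9.14 at 24 h to 9.88 at 5 h, with a median of 9.66. It fell in both series, by -0.21 ± 0.04 per doubling of hours plus 1 in control (adjusted p = 0.0494) and -0.33 ± 0.08 per doubling of hours under IL-6 plus HGF (adjusted p = 0.0215, both limma). At matched hours the stimulated arrays differed by 0.36 at 8 h, 0.21 at 12 h and -0.01 at 24 h, which did not pass (95% interval -0.03 to 0.41).

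Acacb, the acetyl-CoA carboxylase of the mitochondrial surface whose product restrains fatty acid oxidation, had control values of 7.47 at 0 h, 7.36 at 4 h, 7.24 at 8 h, 7.03 at 12 h and 7.06 at 24 h. IL-6 alone gave 7.45, 7.13, 7.26 and 7.38 at 1, 2, 3 and 4 h, and its IL-6 plus HGF arrays ran from 6.33 at 24 h to 7.25 at 5 h, with a median of 6.83. Pair differences were -0.45 at 8 h, -0.53 at 12 h and -0.74 at 24 h, 1.49 times lower on average (-0.57 ± 0.09, adjusted p = 0.0130, limma), larger at each later hour. It fell under IL-6 plus HGF (-0.40 ± 0.08, adjusted p = 0.00878, limma). A dimmer second probe set of Acacb had a small difference of the opposite sign. Acaca, the cytosolic carboxylase that feeds synthesis, did not pass at matched hours (-0.14 ± 0.08, adjusted p = 0.319, limma).

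Among the desaturases and elongases Scd1 was the gene called. Scd1, which places the first double bond in saturated chains, read 13.48 at 0 h, 13.26 at 4 h, 13.05 at 8 h, 12.50 at 12 h and 12.01 at 24 h in control. With IL-6 alone the values were 13.50, 13.22, 13.27 and 13.21 at 1, 2, 3 and 4 h, and its IL-6 plus HGF arrays ran from 11.76 at 24 h to 13.17 at 5 h, with a median of 12.92. The conditions ran close together, with pair differences of -0.10 at 8 h, 0.11 at 12 h and -0.24 at 24 h. It fell under IL-6 plus HGF by -0.63 ± 0.06 per doubling of hours (adjusted p = 0.000281, limma). In control its slope of -0.30 ± 0.07 per doubling of hours plus 1 did not pass (adjusted p = 0.0575, limma). The difference of slopes did not pass in the fit with an interaction. Its 24 h array was 2.66 times lower than its 5 h array under IL-6 plus HGF, and in control 24 h was 2.77 times lower than 0 h.

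Elovl5 and Elovl6, elongases of polyunsaturated and of saturated chains, and Fads1 and Fads2, the desaturases of polyunsaturated chains, were called in 0 of the 7 comparisons. Elovl5 had the narrowest range of all members, its 18 arrays lying between 10.49 and 10.72. Fads1 and Fads2 were above control at each matched hour, Fads2 by 0.17 at 8 h, 0.24 at 12 h and 0.09 at 24 h, and neither passed.

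For glycerolipid assembly, Gpam, the mitochondrial acyltransferase of its first step, read 11.49 at 0 h, 11.34 at 4 h, 11.39 at 8 h, 11.30 at 12 h and 11.45 at 24 h in control. The 4 IL-6 arrays stood at 11.32, 11.10, 11.09 and 11.06 at 1, 2, 3 and 4 h, all below the 5 controls except at 1 h. Its IL-6 plus HGF arrays read 10.76 at 5 h, 10.79 at 6 h, 10.76 at 7 h, 10.68 at 8 h, 10.42 at 9 h, 10.52 at 10 h, 10.32 at 12 h and 10.70 at 24 h. All 8 were below all 5 controls. The pairs differed by -0.71 at 8 h, -0.98 at 12 h and -0.75 at 24 h, 1.76 times lower on average (-0.81 ± 0.08, adjusted p = 0.00495, limma). Its slope under IL-6 plus HGF did not pass (-0.09 ± 0.09, adjusted p = 0.609, limma), the 24 h array being above those of 9, 10 and 12 h. Under IL-6 alone the difference from control at 0 and 4 h was -0.28 ± 0.13 and did not pass (adjusted p = 1.00, limma).

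Dgat2, which completes triglyceride, was below control at 8 and 12 h and not at 24 h (-0.48 at 8 h, -0.62 at 12 h and 0.02 at 24 h) and did not pass. Pnpla3, a lipid droplet protein, was dim on all arrays, from 5.16 to 5.67, and was called in 0 comparisons.

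Among the regulators of this arm, Srebf1 read 10.07 at 0 h, 9.73 at 4 h, 9.69 at 8 h, 9.66 at 12 h and 9.61 at 24 h in control. IL-6 alone gave 10.10, 10.04, 10.05 and 10.12 at 1, 2, 3 and 4 h, all above the controls of 4 h and later, and its IL-6 plus HGF arrays ran from 9.62 at 24 h to 10.27 at 10 h, with a median of 9.95. The stimulated arrays of 8, 12 and 24 h differed from control by 0.21 at 8 h, 0.03 at 12 h and 0.01 at 24 h, and Srebf1 was called in 0 comparisons (matched hours 0.08 ± 0.08, adjusted p = 0.567, limma). Its probe set does not separate the transcript forms of the gene.

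Thrsp, a lipogenic protein induced by thyroid hormone and feeding, read 9.13 at -5 h and 8.27 at 0 h, 8.87 at 4 h, 8.87 at 8 h, 8.67 at 12 h and 8.51 at 24 h in control. With IL-6 alone the values were 8.39, 8.55, 8.30 and 8.51 at 1, 2, 3 and 4 h, and its IL-6 plus HGF arrays ran from 7.92 at 24 h to 8.63 at 6 h, with a median of 8.33. It was lowest among the 5 controls at 0 h, where 16 sterol genes and 12 fatty acid genes were highest (26.7% of all genes were). At matched hours it differed by -0.35 at 8 h, -0.45 at 12 h and -0.58 at 24 h, 1.38 times lower with IL-6 plus HGF on average (-0.46 ± 0.08, adjusted p = 0.0202, limma). Of its other 2 probe sets, the dimmer had the opposite sign, and the call was lost on leaving out any 1 pair (adjusted p from 0.0510 to 0.0814, limma).

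Mlxipl varied between neighbouring arrays: under IL-6 plus HGF it read 9.86 at 5 h, 9.52 at 6 h, 9.88 at 7 h, 9.88 at 8 h, 9.68 at 9 h, 11.35 at 10 h, 9.32 at 12 h and 9.64 at 24 h, and in control 10.23 at 0 h, 9.38 at 4 h, 9.49 at 8 h, 10.12 at 12 h and 9.30 at 24 h. The 10 h array was the highest of all 18 for Mlxipl, and on that array Malat1 read 12.68 against 11.40 at 9 h and 10.69 at 12 h. Srebf1 and Elovl5 also had their highest IL-6 plus HGF value at 10 h, and these 3 of the fatty acid arm compare with 18.4% of all genes. The lowest IL-6 plus HGF value was at 10 h for Ebp, Srebf2 and Stard4 of the sterol arm and for 4 fatty acid genes, against 22.3% of all genes.

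The control at -5 h, which by the hours of the protocol was taken while dexamethasone was still present, lay below control at 0 h for 14 of 18 sterol genes and 10 of 17 fatty acid genes, against 48.2% of all genes, with medians of -0.20 and -0.05 (all genes 0.01). Hmgcs1 read 12.01 at -5 h and 12.51 at 0 h, and Insig1 read 8.22 and 8.74. Dgat2 read 10.56 and 10.00, the opposite order. The -5 h array was above all 5 later controls for 4 sterol genes (Pmvk, Dhcr7, Sc5d and Ebp) and 5 fatty acid genes (Acacb, Fads1, Mlxipl, Thrsp and Dgat2), against 19.9% of all genes. Against the 5 later controls 0 members and 0 of all genes passed (limma, 1 array on one side), and at an unadjusted p under 0.05 there were 2 members (Dgat2 and Acacb, both higher at -5 h) against 5.6% of all genes.

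Among genes of neighbouring roles, 8 other genes of sterol synthesis and uptake had a value. Of these 0 passed at matched hours, and under IL-6 plus HGF 3 fell (Tm7sf2, -0.61 ± 0.07; Msmo1, -0.56 ± 0.06; Rdh11, -0.39 ± 0.09) and 1 rose (Npc2, 0.39 ± 0.10). In control Msmo1 (-0.28 ± 0.04) and Rdh11 (-0.21 ± 0.03) fell and Npc2 (0.20 ± 0.03) rose. Msmo1 and Tm7sf2 are enzymes between lanosterol and cholesterol, and Npc2 carries cholesterol out of lysosomes.

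Of 10 genes of SREBP retention, transport and cleavage, 2 were lower at matched hours: Insig2, the second retention protein (-0.80 ± 0.12, adjusted p = 0.0130), and Sec24a, a coat protein of transport vesicles (-0.37 ± 0.07, adjusted p = 0.0288, both limma). Insig1 and Insig2 thus differed from control in opposite directions at the same hours. Under IL-6 plus HGF Mbtps1, the protease that makes the first cut, rose (0.25 ± 0.06) and Ubxn4 fell (-0.24 ± 0.05).

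Of 9 genes of the LXR sterol sensors and sterol export, the cholesterol ester hydrolase Nceh1 (-0.82 ± 0.09) and the sterol exporter Abcg5 (-0.56 ± 0.08) were lower and the phospholipid-remodelling enzyme Lpcat3 (0.37 ± 0.09) was higher at matched hours, and Nr1h3, which encodes a liver LXR, fell under IL-6 plus HGF (-0.35 ± 0.05). Of 24 other genes of fatty acid and triglyceride metabolism, 6 were lower and 1 was higher at matched hours. The largest were Lpin2, a phosphatidate phosphatase (-1.22 ± 0.10), Cidec, a lipid droplet protein (-1.04 ± 0.10), and Hacd3, an enzyme of very long chain elongation (-0.65 ± 0.08). Under IL-6 plus HGF 4 of these 24 fell, Fabp1, the liver fatty acid binding protein, most (-1.80 ± 0.09), and Scd2 rose (0.39 ± 0.10). These lists were chosen with earlier results of these data known, and their medians at matched hours were -0.006 for the other sterol genes, -0.11 for the SREBP machinery, -0.13 for the LXR list and -0.09 for the other fatty acid list, against 0.01 over all genes.

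Over all 7 comparisons 21 of the 35 genes were called at least once, 15 of 18 in the sterol arm and 6 of 17 in the fatty acid arm, and 14 were called in none; of all genes 18.4% were called at least once. Of called members with several probe sets, every probe set had the same direction for 4 of 7 at matched hours, 10 of 11 under IL-6 plus HGF over time, 5 of 5 in control over time and 1 of 1 for the difference of slopes.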

How the data were processed

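RNA of primary mouse hepatocytes was hybridised, biotin-labelled, to 18 one-colour Affymetrix arrays, per the labels' protocols. The deposited values are log2 signals of 45101 probe sets, from 2.095 to 15.049; their summarization and normalization are not stated in the labels or file headers used here. Rank for rank the arrays lay within 0.118 of their common average, so they were not scaled again, and 0 columns were unused. Groups came from the stimulus and hour in the labels. The array annotation gave 34958 probe sets a single symbol, 932 several and 9211 none; 34754 symbols came through the Entrez identifier. The probe set with the highest mean stood for a gene, 18194 in all.

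Comparisons used limma 3.58.1 in R 4.3.3 (lmFit, eBayes) on all genes with Benjamini-Hochberg adjustment and a threshold of 0.05. Matched hours were paired by the hours in the labels, with 6 arrays; the other fits used the arrays named beside each result. Intervals are 95% intervals from the same fit. Members passing in at least 1 comparison were given array by array, at most 8 per arm by smallest p, with Srebf1, Srebf2 and Insig1; of other lists up to 3 genes per comparison were named. Ebp, Mlxipl, Me1, Dgat2 and other members outside that rule were named after their values were seen. The members and lists were chosen with earlier results of these data known. With 1 array per condition and hour, the number of arrays limits the precision.

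Alternatives were quantile normalization, median centring, the mean of all probe sets, leaving out genes under the 40th percentile, an intensity trend with robust variance, other choices of arrays, blocks and time scale (splines 4.3.3, 3 degrees of freedom), and leaving out each array; the nuclear RNA covariate and a fit without the 10 h array were added after seeing the data. The fit of each of the 7 comparisons was tested on simulated data. A change of 0.5 log2 was recovered for 81% of changed genes at matched hours and 51% for IL-6 alone. It was recovered for 21% for the change of effect and 2% for control at -5 h, so 0 calls there say little about changes of that size. False calls were 3.01% of calls for the difference of slopes, 8.26% for the control trend and 9.5% at matched hours.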

Additional observations from a re-analysis of the deposited data

Results flagged for a closer look

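Within a condition, 11 of 105 groups of array values (35 genes in 3 conditions) held 1 array that stood apart from the others by Dixon's criterion at 95%, where chance gives about 1 group in 20. Arrays of a condition are different hours, so an array that stands apart can be an hour. Under IL-6 the 1 h array stood apart for Mvd (7.75, next 7.51), Gpam (11.32, next 11.10) and Sc5d (11.57, next 11.62). Under IL-6 plus HGF the 24 h array stood apart for Nsdhl (10.33, next 10.89) and Scd1 (11.76, next 12.61), the 5 h array for Fads2 (9.60, next 9.39), and the 10 h array for Ebp (10.32, next 10.75) and Mlxipl (11.35, next 9.88). Among the controls it was 0 h for Srebf1 (10.07, next 9.73), 4 h for Acss2 (8.26, next 8.41) and 24 h for Sc5d (11.20, next 11.50). Acss2 was the member whose slope differed between the conditions (-0.52 log2 per doubling of hours, IL-6 plus HGF minus control, adjusted p = 0.0182, limma). It is also the member whose control at 4 h stood apart, and without that array the difference was -0.47 (adjusted p = 0.332, limma). The cause of these values was not tested.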

How the results depend on the processing

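Counts of members called, over both arms, moved as follows, with no change of sign among called members. At matched hours, 9 called: 4 with the mean of all probe sets, 1 without the hour as block, 16 with a spline of time, 2 with 4 group means and the nuclear RNA covariate, and 3 to 6 without 1 pair of arrays. Over all genes 460 were higher and 1174 lower in the main fit. These became 413 and 961 with the mean of all probe sets, and 47 and 93 without the block. They were 1056 and 2096 with the spline, and 241 and 459 with the covariate, where the group means pooled unlike hours. Without 1 pair, 178 to 228 were higher and 407 to 613 lower. Under IL-6 plus HGF over time, 17 called: 5 without the 24 h array and 5 to 21 without any 1 array. Of all genes 880 fell in the main fit, 194 without the 24 h array and 194 to 1326 without any 1 array. In control over time, 7 called: 15 with quantile normalization, 16 without dim genes, 15 with an intensity trend, 12 on plain hours, 4 without the 24 h array, 0 with the nuclear RNA covariate, and 0 to 4 without any 1 array. Of all genes 266 fell in the main fit, 368 with quantile normalization, 381 without dim genes and 361 with an intensity trend. On plain hours 562 fell, with the covariate 0 did, and without any 1 array 9 to 275 did. For the difference of slopes, 1 called: 0 with the mean of all probe sets, 0 without the 24 h arrays and 0 to 1 without any 1 array. Of all genes 7 had a higher and 11 a lower slope in the main fit. These were 4 and 7 with the mean of all probe sets, and 0 and 1 without the 24 h arrays. The cause was not tested beyond the smaller number of arrays. For IL-6 alone, the change of effect and the control at -5 h, 0 were called under all settings run. By replicate number, no paired analysis was possible because those numbers were given in accession order; the pairs at matched hours came from the hour in the labels. Without replicate arrays at any hour, differences at a single hour have no error, and Pnpla3, near the dim end, has little signal over background.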
